A study of Mus musculus with 8 samples.

Results

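The cytokine genes of activated helper T cells were followed in splenic CD4+ T cells of mice, before and after 16 hours of stimulation. The genes were chosen by symbol, and Il2, Ifng, Tnf, Il3, Il4, Csf2, Lta, Lif, Il10 and Il21 were all found, which makes 10 of the 27179 genes in the table. All mice were of the strain C.Cg-Foxp3tm2Tch/J, a BALB/c line with a green fluorescent reporter at Foxp3, and were 8 weeks old. Cd offspring came from parents given 10 ppm CdCl2 in the drinking water through mating, and through pregnancy for the dams, with the water replaced soon after birth. Control offspring came from untreated parents. CD4+ T cells were enriched from the spleen by negative selection and sorted. The labels name CD4+ T cells, whereas a figure legend of the study names CD4+CD25- cells, and CD25 is the product of Il2ra. Unstimulated cells were lysed at once (0 hours), and stimulated cells were cultured for 16 hours with anti-CD3/CD28 beads. Stimulation is therefore not separated from culture, because no library holds cells cultured without beads. The 4 groups had 2 libraries each, numbered 6 and 7, and nothing in the labels says that libraries of the same number came from 1 animal. P values rest on the spread between libraries within groups, pooled for each gene over all 4 groups and moderated across genes. A comparison of 2 groups thus also draws on the spread of the others.

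Helper T cells release cytokines once the T cell receptor and CD28 are engaged, and NFAT, AP-1 and NF-kB carry that signal to the cytokine promoters. IL-2 drives T cell growth, TNF and lymphotoxin alpha are inflammatory ligands made early, and IFN-gamma is the signature product of Th1 and natural killer cells. Many cytokine mRNAs carry AU-rich elements in the 3′ UTR and are degraded quickly, so that a transcript level depends on the time of sampling.

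Levels are in RPKM, reads scaled to the length of the transcript and to all reads counted on genes. Libraries of control offspring held 17985243 and 16299663 such reads without stimulation and 15542732 and 19449725 with it. Those of Cd offspring held 19419451 and 20538306 without and 21987821 and 25486791 with it. A filter of a mean of at least 0.5 RPKM over the 8 libraries kept 12605 genes and 6 of the 10 cytokine genes: Il2, Ifng, Tnf, Lta, Lif and Il4. Il3, Csf2, Il10 and Il21 fell under it. Il2 and Lif passed through their stimulated libraries only and could be called in no direction but upward. The same holds for Ccl1, Ccl3, Ccl4, Ccr6, Kit, Hk2 and Tnnt2 among the further genes below. Klrb1c, Gzma, Itgam, Cpa3 and Pde11a passed through their unstimulated libraries only and could be called in no direction but downward. A count over genes that passed is therefore a description only. Fold changes are on the scale of log2(RPKM + 0.1), which understates the change of low genes.

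The sorted cells had the transcripts of T cells. Cd3e, part of the T cell receptor complex, lay between 306 and 464 RPKM in the 8 libraries. The B cell gene Ms4a1 and the monocyte gene Cd14 were at 0 in each of them, but the B cell gene Cd79a lay between 2.87 and 4.73 RPKM. Cd8a stayed at or under 0.16 RPKM, whereas Cd8b1 lay between 9.40 and 11.7 RPKM. Foxp3, the factor of regulatory T cells, lay between 4.48 and 7.69 RPKM. Xist lay between 49.3 and 67.1 RPKM in all 8 libraries, and of the 4 Y-linked genes listed none exceeded 0.011 RPKM.

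Stimulation raised a small set of cytokine transcripts by very different amounts, and it lowered Ifng. In control offspring 5 of the 6 tested genes passed an adjusted p under 0.01 with a change of more than 2-fold, against 18.7% of all genes tested. Of these, 4 were higher (Il2, Lif, Lta and Tnf), where 11.5% of all genes were called higher, and 1 was lower (Ifng), where 7.17% were. In Cd offspring the same 5 genes were called, against 18.6% of all genes, with 4 higher (11.4% of all genes) and Ifng lower (7.24%). The comparisons in control and in Cd offspring share no library, but they share the filter and the pooled spread of the fit, so their calls are not independent. The share of all reads on the 10 genes together was 0.00634% and 0.00587% before and 0.0362% and 0.0346% after stimulation in control offspring. The share in Cd offspring was 0.00599% and 0.00557% before and 0.0309% and 0.0323% after.

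**Figure D1:**
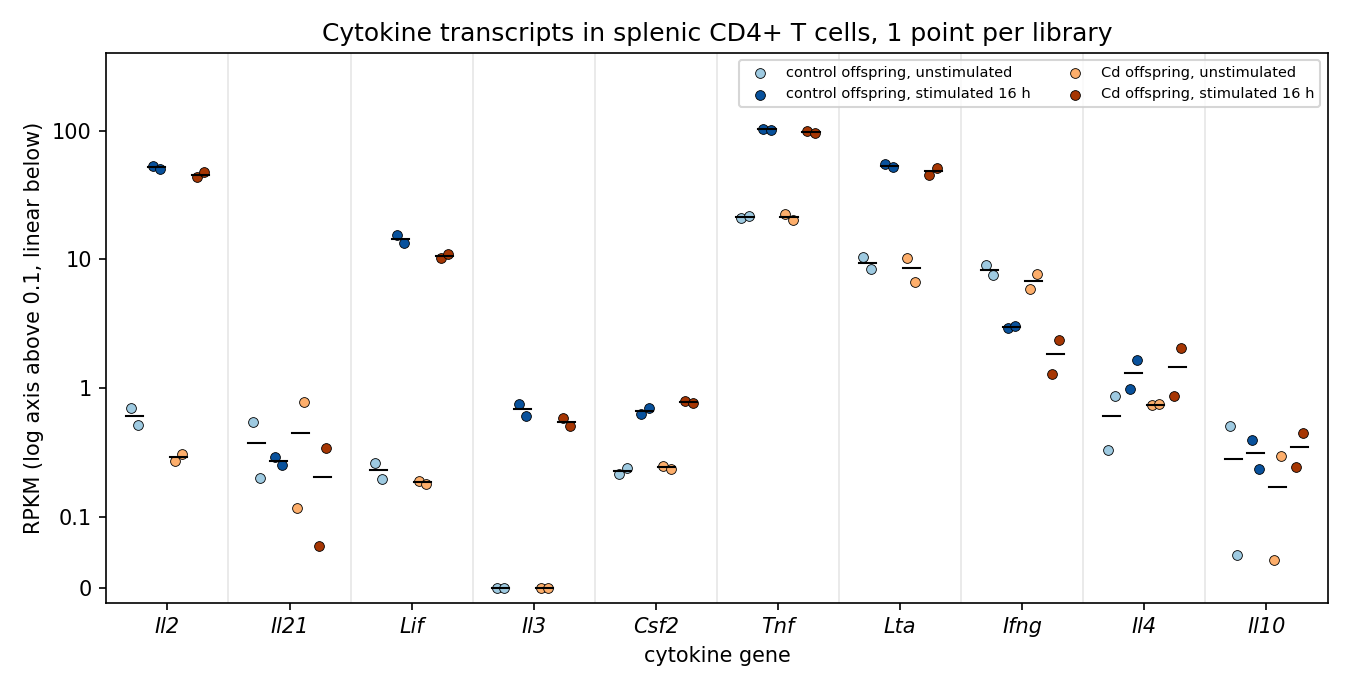
Level of the 10 cytokine genes in RPKM (logarithmic above 0.1 and linear below), with 1 point per library, 2 libraries per group and a bar at the group mean. Il2, Lif, Lta and Tnf were higher in all 4 stimulated libraries, Ifng was lower in all 4, and Il3 was at 0 in the 4 unstimulated ones.

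Il2 encodes the main T cell growth factor and went from a trace to a leading transcript. Control offspring had 0.703 and 0.517 RPKM before and 53.0 and 50.2 RPKM after stimulation. Cd offspring had 0.271 and 0.308 RPKM before and 43.9 and 47.2 RPKM after it. The stimulated libraries lay far above the unstimulated ones in both kinds of offspring, with no overlap. The log2 fold change was 6.20 in control offspring (SE 0.14, adjusted p = 1.87e-07 in limma), and 4 of the 12605 genes had a larger increase. It was 6.87 in Cd offspring (SE 0.14, adjusted p = 1.36e-07). Over the alternative settings the log2 fold change ranged from 5.03 to 6.39 in control and from 5.17 to 7.17 in Cd offspring. Before stimulation the values rest on 12 and 8 reads in control and on 5 and 6 reads in Cd offspring, so the size of the fold is imprecise. The ratio of summed reads per depth was 83.7 in control offspring, with an exact 95% interval of 54.0 to 137, and 157 in Cd offspring, with an interval of 87.8 to 316. Such intervals cover counting error only.

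Lif, a cytokine of the IL-6 family, followed Il2 in the size of its increase at a lower level. Its level rested at 0.261 and 0.197 RPKM in control offspring and reached 15.4 and 13.4 RPKM with beads. The matching values for Cd offspring were 0.191 and 0.181 RPKM, then 10.2 and 11.0 RPKM. The groups with and without beads did not overlap, and both stimulated libraries of Cd offspring lay below both of control offspring. The log2 fold change was 5.47 in control (SE 0.16, adjusted p = 3.77e-07) and 5.22 in Cd offspring (SE 0.16, adjusted p = 4.28e-07). The unstimulated libraries held 13 to 19 reads, and over the alternative settings the values ranged from 3.65 to 5.93 and from 3.29 to 5.79.

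Tnf and Lta, neighbouring genes of the TNF family, were already abundant in unstimulated cells and rose by less. Tnf was the highest of the 10 genes in all 4 groups. It measured 20.7 and 21.6 RPKM before and 103 and 102 RPKM after stimulation in control offspring, and 22.5 and 20.1 against 98.7 and 96.1 RPKM in Cd offspring. Lta measured 10.4 and 8.43 against 54.6 and 51.9 RPKM in control offspring, and 10.3 and 6.69 against 45.3 and 51.0 RPKM in Cd offspring. For both genes every stimulated library was above every unstimulated one. The log2 fold change of Tnf was 2.27 in control (SE 0.06, adjusted p = 2.83e-07) and 2.19 in Cd offspring (SE 0.06, adjusted p = 3.37e-07). That of Lta was 2.49 (SE 0.19, adjusted p = 1.88e-05) and 2.52 (SE 0.19, adjusted p = 1.84e-05).

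**Figure D2:**
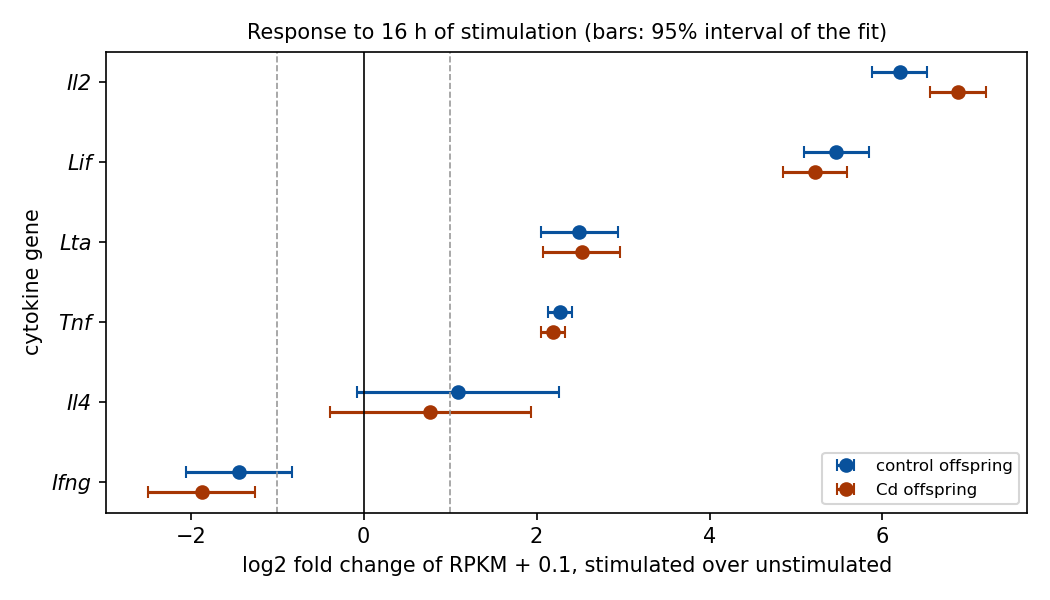
Log2 fold change of stimulated over unstimulated cells for the 6 tested genes, with 95% intervals of the limma fit and dashed lines at a 2-fold change. The intervals use a spread pooled over all groups. Il2 and Lif lie beyond 5, Lta and Tnf between 2 and 3, the intervals of Il4 cross 0, and Ifng lies below 0 in both kinds of offspring.

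Ifng went the other way. Control offspring had 9.03 and 7.57 RPKM without beads and 2.93 and 3.02 RPKM with them, from 55 to 196 reads per library. Cd offspring had 5.84 and 7.62 RPKM without and 1.28 and 2.37 RPKM with beads. All 4 stimulated libraries lay below all 4 unstimulated ones. The log2 fold change was -1.44 in control offspring (SE 0.26, adjusted p = 0.00195) and -1.87 in Cd offspring (SE 0.26, adjusted p = 0.000498). In control offspring the adjusted p rose above 0.01 without unstimulated library 6 (log2 fold change -1.32, adjusted p = 0.0168), without stimulated library 6 (-1.42, adjusted p = 0.0128) and without stimulated library 7 (-1.47, adjusted p = 0.0109). In bulk RNA, fewer cells of a type and less RNA per cell cannot be told apart.

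Some transcripts typical of natural killer cells were lower after stimulation, as Ifng was. Of the 8 genes listed for natural killer and innate lymphoid cells, 6 were tested, and 3 were called lower and none higher in both kinds of offspring, beside 7.17% of all genes called lower in control and 7.24% in Cd offspring. For Klrb1c, 1 of the 3, the filter allowed no other direction, and Eomes, Rora and Gzma were not called. The 8 genes summed to 43.6 and 48.7 RPKM before and 11.9 and 12.0 RPKM after stimulation in control offspring. The sums for Cd offspring were 40.4 and 45.9 RPKM before and 13.7 and 13.3 RPKM after. The sums of the stimulated libraries were thus all below those of the unstimulated ones. Klrd1, an inhibitory receptor subunit and the highest of the list on average over the 8 libraries, measured 15.8 and 15.4 against 4.83 and 4.63 RPKM in control offspring (log2 fold change -1.70, adjusted p = 1.74e-06). Prf1, the pore-forming protein perforin and the highest of the list in unstimulated cells, measured 15.9 and 19.4 against 1.50 and 1.25 RPKM (-3.59, adjusted p = 6.41e-07). Klrb1c, a receptor gene of natural killer cells, measured 4.35 and 4.29 against 0.147 and 0.293 RPKM (-3.83, adjusted p = 2.20e-05). Ncr1, which defines natural killer cells, was at 0 in 7 of the 8 libraries and at 0.0311 RPKM in the remaining one. The libraries were of sorted CD4+ T cells, and the part of natural killer cells in the level of Ifng was not tested.

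Single genes from the other lists are given beside Ifng as examples, and genes of these lists went in both directions. The calls in the list of naive and memory genes are given further below. The chemokine Ccl3 was called higher in control offspring, with a log2 fold change of 2.27 (adjusted p = 0.00280), as were Ccl4 and Ccr6, and the filter allowed these 3 no other direction. Ccl5, a chemokine of memory and cytotoxic cells, measured 20.4 and 36.7 against 2.54 and 5.22 RPKM in control offspring (log2 fold change -2.87, adjusted p = 0.00108). Cxcr3, a receptor of Th1 cells, measured 13.9 and 11.4 against 3.56 and 2.40 RPKM (-2.07, adjusted p = 0.000727). Cd44, of the same list as Cxcr3, went the other way, at 17.3 and 17.0 against 34.3 and 32.6 RPKM in control offspring. Itgam, shared by myeloid and natural killer cells, measured 1.85 and 1.74 against 0.261 and 0.329 RPKM (-2.27, adjusted p = 0.000123), but the filter allowed it no other direction, and it was the only 1 of 6 listed myeloid genes tested. Tested genes with a pattern much like that of Ifng over the 8 libraries included Serpina3g (distance 0.49) and Pde11a (0.70). The distance is Euclidean, on log2(RPKM + 0.1) centred on the mean of each gene. Eomes and Tbx21, the factors of cytotoxic and Th1 cells, did not pass the test in control offspring, with log2 fold changes of -0.58 (adjusted p = 0.0311) and 0.41 (adjusted p = 0.425).

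**Figure D3:**
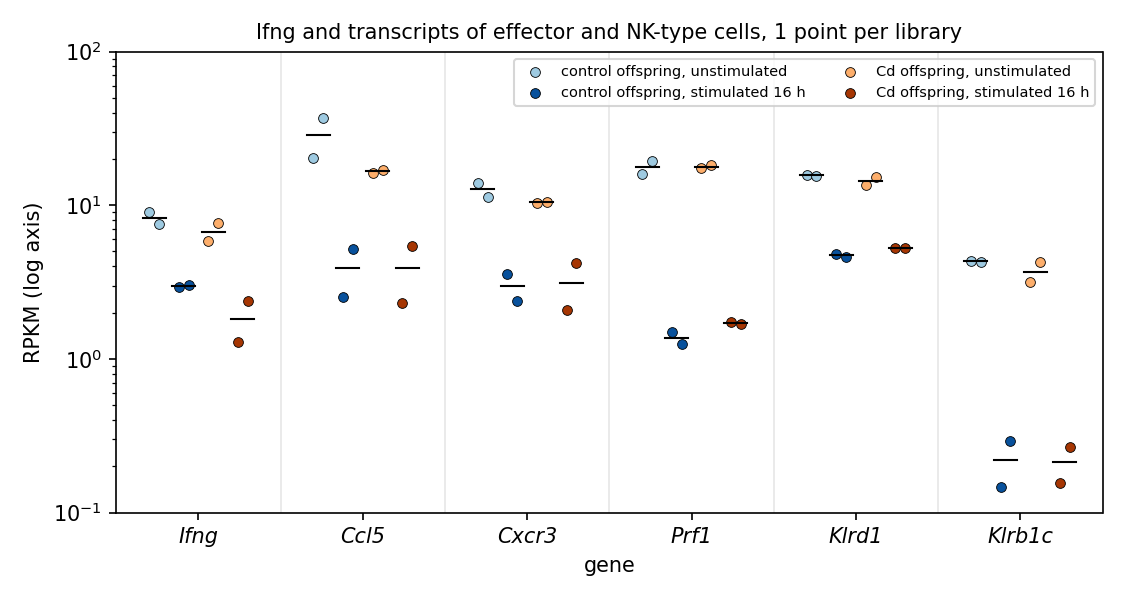
Level of Ifng and 5 genes of effector and natural killer cells in RPKM on a logarithmic axis, with 1 point per library and a bar at the group mean. For each gene the 4 stimulated libraries lie below the 4 unstimulated ones. Ccl4, Ccr6 and Cd44, which were higher after stimulation, and Rora, which was not called, are not drawn.

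Il4, the Th2 cytokine, was low and did not pass the test. Control offspring had 0.329 and 0.872 RPKM before and 0.991 and 1.64 RPKM after stimulation, from 5 to 27 reads. Cd offspring had 0.732 and 0.750 RPKM, then 0.862 and 2.05 RPKM. The stimulated libraries were above the unstimulated ones in each kind of offspring, but replicates lay far apart. The log2 fold change was 1.09 in control (SE 0.50, adjusted p = 0.0893) and 0.77 in Cd offspring (SE 0.50, adjusted p = 0.206). With a library left out they ranged from 0.50 to 1.68 and from 0.19 to 1.35. Of the 5 genes listed for mast cells and basophils, which also make IL-4, Fcer1a and Ms4a2 were at 0 in all libraries and Mcpt8 did not exceed 0.0663 RPKM. The list summed to 0.764 and 0.578 RPKM before and 1.82 and 1.86 RPKM after stimulation in control offspring, and to 0.991 and 1.46 against 1.62 and 1.54 RPKM in Cd offspring. The 2 tested genes of the list went in opposite directions, each in the direction that the filter allowed. Kit, the highest in stimulated cells, measured 0.0858 and 0.0710 against 1.51 and 1.54 RPKM in control offspring (log2 fold change 3.19, adjusted p = 3.60e-05). Cpa3, the highest in unstimulated cells, measured 0.612 and 0.507 against 0.310 and 0.318 RPKM in control offspring (-0.67, adjusted p = 0.0721), and was called lower in Cd offspring, at 0.921 and 1.34 against 0.282 and 0.243 RPKM (-1.75, adjusted p = 0.00106). These libraries, too, were of sorted CD4+ T cells, and the part of mast cells and basophils in the level of Il4 was not tested.

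Il3 and Csf2, growth factors of myeloid cells encoded next to each other on chromosome 11, appeared at trace level. Il3 had no read in any of the 4 unstimulated libraries. After stimulation it had 10 reads in each library of control offspring (0.758 and 0.606 RPKM) and 11 in each library of Cd offspring (0.589 and 0.508 RPKM). Set against a floor of 3 reads per library, the lowest stimulated library was at least 2.79-fold higher in both kinds of offspring. Csf2, which encodes GM-CSF, was at 0.215 and 0.238 against 0.623 and 0.697 RPKM in control offspring, and at 0.249 and 0.236 against 0.792 and 0.760 RPKM in Cd offspring. Its stimulated libraries held 10 to 20 reads and the unstimulated ones 4 or 5, without overlap. The ratio of summed reads of Csf2 per depth was 2.94 (exact 95% interval 1.28 to 7.57) in control and 3.20 (1.56 to 7.20) in Cd offspring. Without the filter on low values both genes were called higher after stimulation in control and in Cd offspring.

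Il10 and Il21, an inhibitory cytokine and a product of follicular helper cells, followed no group. Il10 had 0.511 and 0.0470 RPKM before and 0.394 and 0.236 RPKM after stimulation in control offspring, and 0.0394 and 0.298 against 0.244 and 0.451 RPKM in Cd offspring. Il21 was at 0.543 and 0.200 against 0.293 and 0.251 RPKM in control offspring, and at 0.117 and 0.777 against 0.0592 and 0.345 RPKM in Cd offspring. For Il21 the highest library held 49 reads and the lowest 4. In both kinds of offspring the stimulated and unstimulated libraries of both genes overlapped, and neither gene was called when the filter was dropped.

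The order of the 10 levels changed with stimulation. In unstimulated cells of control offspring Tnf stood first, at 21.2 ± 0.579 RPKM (SD, n = 2), above Lta (9.42 ± 1.40) and Ifng (8.30 ± 1.03), whose libraries overlapped. Il2 (0.610 ± 0.131) and Il4 (0.601 ± 0.384) came next and overlapped too. After stimulation the order was Tnf (103 ± 1.04), Lta (53.2 ± 1.92), Il2 (51.6 ± 1.98), Lif (14.4 ± 1.43) and Ifng (2.98 ± 0.0655), and of these neighbours Lta and Il2 overlapped. In stimulated cells of Cd offspring the order was again Tnf (97.4 ± 1.82), Lta (48.1 ± 4.01), Il2 (45.5 ± 2.38), Lif (10.6 ± 0.519) and Ifng (1.83 ± 0.772). There too Lta overlapped with Il2, and Ifng overlapped with Il4 (1.45 ± 0.837). In control offspring Il2 made up 1.64% and 1.30% of the summed RPKM of the 10 genes before and 22.8% and 22.4% after stimulation. Ifng made up 21.1% and 19.1% before and 1.26% and 1.35% after stimulation.

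Prenatal Cd was compared with control to ask whether the exposure altered the cytokine transcripts of adult T cells. In unstimulated cells 1 of the 6 tested genes, Il2, was called lower at an adjusted p under 0.05, against 0.896% of all genes called (113 of 12605) and 0.762% called lower. Both Cd libraries, at 0.271 and 0.308 RPKM, lay below both control libraries, at 0.703 and 0.517 RPKM. The log2 fold change was -0.86 (SE 0.14, adjusted p = 0.0409 in limma), lower in 2 of 2 libraries. The call rests on 31 reads in all, and the ratio of 11 reads in Cd to 20 in control offspring, scaled by depth, was 0.472 with an exact 95% interval of 0.204 to 1.03. It was lost under 15 of 18 alternative settings, among them limma voom on the recovered reads (log2 fold change -1.01, adjusted p = 0.366), with adjusted p values from 0.0272 to 0.482 over all 18. The SE is pooled over all groups, stimulated ones included. With only the libraries of the comparison in limma, the adjusted p was 0.482. Its sign was negative in all 18, with log2 fold changes from -1.05 to -0.32, and the larger pseudocounts gave the smallest values (-0.49 and -0.32). Without control library 6 the log2 fold change was -0.67 (adjusted p = 0.144).

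The remaining tested genes were not called in unstimulated cells. Their log2 fold changes of Cd over control ranged from -0.30 for Ifng (95% interval -0.92 to 0.31) to 0.38 for Il4 (-0.79 to 1.55). For Tnf the difference was 0.0083, with an interval of -0.13 to 0.15. In stimulated cells none of the 6 genes was called by limma, against 0% of all genes (0 of 12605), and limma voom also called none. At an unadjusted p under 0.05, 2 of the 6 and 414 of the 12605 passed. These were Ifng, with a log2 fold change of -0.74 (95% interval -1.35 to -0.12), and Lif, with -0.44 (-0.81 to -0.07), each lower in both Cd libraries than in both control libraries. With a library left out the value of Ifng ranged from -1.16 to -0.32. Il2 differed by -0.18 (-0.50 to 0.14), Tnf by -0.07 (-0.22 to 0.07) and Lta by -0.15 (-0.59 to 0.30).

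The response to stimulation was compared between Cd and control offspring by the interaction contrast. None of the 6 genes was called by limma, against 0.357% of all genes (45 of 12605), and limma voom also called none. At an unadjusted p under 0.05, 1 of the 6 (Il2) and 1332 of all genes passed. For Il2 the response was larger in Cd offspring by 0.67 on the log2 scale (95% interval 0.22 to 1.13, adjusted p = 0.295), a difference that contains the unstimulated values of few reads and ranged from 0.14 to 0.86 over the alternative settings. For Ifng the difference was -0.43 (-1.30 to 0.44, and -0.85 to -0.011 with a library left out), for Lif -0.24 (-0.77 to 0.28), and for Tnf -0.08 (-0.28 to 0.12).

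Receptors decide which cells respond to these cytokines. Of 19 listed receptor genes 14 were tested, and 3 were called higher and none lower after stimulation in each kind of offspring, beside 11.5% of all genes called higher and 7.17% lower in control offspring, and 11.4% and 7.24% in Cd offspring. The difference from these shares was not tested. The median log2 fold change of the list was -0.46 in control and -0.15 in Cd offspring, beside 0.07 and 0.05 over all genes tested. Il2ra, the alpha chain that gives the IL-2 receptor its high affinity, rose from 1.97 and 1.80 to 117 and 97.6 RPKM in control offspring (log2 fold change 5.76, adjusted p = 8.94e-08) and from 2.19 and 2.0 to 94.0 and 101 RPKM in Cd offspring. Tnfrsf1b, a TNF receptor, rose from 13.0 and 11.8 to 40.8 and 46.2 RPKM in control offspring (1.80, adjusted p = 1.76e-06). Il2rb, the beta chain, was the remaining gene called (1.74, adjusted p = 2.75e-06). Il2rg, the common gamma chain and the most abundant of the list, measured 325 and 314 against 228 and 235 RPKM in control offspring, under a 2-fold change. Ifngr1, a chain of the IFN-gamma receptor, measured 67.9 and 58.7 against 39.9 and 36.7 RPKM.

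Other cytokines and chemokines of T cells were mixed. Of 21 further helper cytokines 7 were tested, and 1 was called, beside 18.7% of all genes. This gene, Tnfsf11 (RANKL), rose from 4.65 and 4.20 to 24.0 and 17.3 RPKM in control offspring (log2 fold change 2.18, adjusted p = 2.17e-05). Ltb, the partner of Lta in the membrane lymphotoxin and the most abundant of that list, measured 391 and 372 against 256 and 269 RPKM. Of 11 chemokines 7 were tested, with 3 called higher, each low before stimulation, and 1, Ccl5, lower in each kind of offspring, beside 11.5% and 7.17% of all genes in control and 11.4% and 7.24% in Cd offspring. The filter allowed the 3 no other direction. Ccl4 rose from 0.0842 and 0.558 to 11.8 and 13.5 RPKM in control offspring (log2 fold change 5.19, adjusted p = 0.000158). Ccl1 went from 0.110 and 0 to 1.53 and 3.56 RPKM (4.07, adjusted p = 0.000498).

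Transcription factors of cytokine genes were split by direction. Of 31 listed, 29 were tested, and 6 were called higher and 6 lower in each kind of offspring, beside 11.5% and 7.17% of all genes in control and 11.4% and 7.24% in Cd offspring. Irf4 rose most, from 2.43 and 2.86 to 525 and 561 RPKM in control offspring (log2 fold change 7.63, adjusted p = 7.74e-08). The AP-1 genes Fos and Jun fell furthest, Fos from 577 and 651 to 11.1 and 11.2 RPKM (-5.77, adjusted p = 7.74e-08) and Jun from 433 and 389 to 7.63 and 6.68 RPKM (-5.82, adjusted p = 7.74e-07). Junb, the highest of the list in unstimulated cells, fell from 1012 and 884 to 116 and 124 RPKM (-2.98, adjusted p = 2.93e-06).

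Regulators of cytokine mRNA decay and feedback inhibitors of cytokine signals shape how long and how strongly a cytokine acts. Of 12 decay regulators, all tested, 1 was called higher and 2 lower in each kind of offspring, beside 11.5% and 7.17% of all genes in control offspring. Zfp36 (tristetraprolin), which binds AU-rich elements and was the highest in unstimulated cells, fell from 555 and 483 to 106 and 110 RPKM in control offspring (log2 fold change -2.26, adjusted p = 1.12e-05), and its relative Zfp36l2 from 337 and 270 to 83.5 and 86.8 RPKM (-1.82, adjusted p = 1.24e-05). Zc3h12d, of the Regnase family, rose from 19.1 and 18.9 to 52.3 and 56.6 RPKM (1.51, adjusted p = 9.34e-07). Of 8 feedback inhibitors, all tested, 1 was called higher and 1 lower in each kind of offspring, where the same shares of all genes apply. Cish, a target of STAT5 signals, rose from 9.19 and 9.34 to 113 and 106 RPKM (3.55, adjusted p = 8.94e-08), and Socs3 fell from 21.0 and 20.0 to 6.76 and 7.21 RPKM (-1.54, adjusted p = 8.46e-05). No tested gene of these 6 lists was called for Cd in unstimulated or stimulated cells, or for the difference in response.

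Markers of T cell state were set beside the 18.7% of all genes called in control offspring (11.5% higher and 7.17% lower) and the 18.6% called in Cd offspring. Of 9 T cell genes 1, Cd3g, was called lower in control offspring (479 and 455 against 204 and 213 RPKM, log2 fold change -1.16, adjusted p = 2.95e-06) and none in Cd offspring, where Cd3g missed the 2-fold threshold (-0.97, adjusted p = 7.26e-06). Of 7 genes of the naive and memory state, Ccr6 was called higher and Cxcr3 lower in control offspring, and in Cd offspring Cxcr3 alone was called (Ccr6 adjusted p = 0.0188). Ccr6 had 3 to 16 reads in the unstimulated libraries. Ccr7, the highest of the 7 in stimulated cells, measured 270 and 258 against 381 and 406 RPKM. Of 4 genes of regulatory T cells 2 were called higher in each kind of offspring, Tnfrsf18 and Ctla4, which conventional T cells also induce on activation. Tnfrsf18 was the only gene of any marker list called for Cd in unstimulated cells, at 27.6 and 27.4 RPKM against 33.6 and 33.1 RPKM in control offspring (log2 fold change -0.28, SE 0.04, adjusted p = 0.0364).

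Genes with a pattern like that of Il2 were looked up by distance. The 3 tested genes nearest to it over the 8 libraries were Lad1 (distance 1.31), Hk2 (1.57) and Tnnt2 (1.58). Lad1 was at 0.873 and 1.11 against 151 and 145 RPKM in control offspring and at 0.740 and 0.814 against 159 and 148 RPKM in Cd offspring. Hk2, a hexokinase of glycolysis, was at 0.161 and 0.300 against 17.4 and 15.4 RPKM in control offspring. These genes were chosen for being alike.

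Several of the 10 genes lie side by side in the GRCm38.p6 annotation of RefSeq. Tnf (chr17:35199367-35202007) and Lta (chr17:35203165-35205578) are 1157 bases apart, with Ltb 3061 bases beyond Tnf. Il3 (chr11:54265085-54267279) and Csf2 (chr11:54247270-54249899) are 15185 bases apart, and Il2 (chr3:37120713-37125954) and Il21 (chr3:37222759-37232636) are 96804 bases apart. The 14 other protein-coding genes next to a member include 7 that were tested, of which 1 was called, beside 18.7% of all genes in control offspring. This gene, Mapkapk2 beside Il10, was at 29.8 and 28.3 against 65.4 and 64.7 RPKM in control offspring (log2 fold change 1.16, adjusted p = 1.37e-06). Nfkbil1, on the far side of Lta, measured 9.12 and 9.77 against 8.45 and 9.09 RPKM. Acsl6, on the far side of Il3 and below the filter, had no read in any unstimulated library, as did Il3, and 34, 51, 48 and 54 reads in the 4 stimulated ones.

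The promoters of genes that rose and of Ifng are shown because these genes moved in opposite directions. Of the 10 genes 9 had an entry in the RefSeq promoter table of GRCm38.p6, with 2 entries for Il4, and Il10 had none. In the 250 bases before the start, GGAAA, the core bound by NFAT, was found on either strand in 9 of 10 entries, beside 55.6% of 32851 promoters. TGANTCA of AP-1 was found in 1 entry, that of Lif, beside 6.75% of promoters, and GGNNTTTCC, a short form of the NF-kB site that contains the GGAAA core on the other strand, in 0 entries, beside 4.93%. Tnf held 3 GGAAA cores, Il2 held 2, and Lif and Ifng held 1 each. A match describes letters and no binding, and the sequences are those of the reference strain. Bases in an annotated exon were left off at the end. Capitals mark the matches in Il2 (chr3:37125960-37126204, minus strand), Lif (chr11:4257318-4257556, plus strand), Tnf (chr17:35202008-35202257, minus strand) and Ifng (chr10:118440796-118441045, plus strand).
Il2 promoter: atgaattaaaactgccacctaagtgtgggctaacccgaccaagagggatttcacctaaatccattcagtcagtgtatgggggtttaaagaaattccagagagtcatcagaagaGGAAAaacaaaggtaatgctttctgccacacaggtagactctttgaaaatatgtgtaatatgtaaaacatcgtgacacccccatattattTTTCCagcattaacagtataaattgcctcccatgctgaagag
Lif promoter: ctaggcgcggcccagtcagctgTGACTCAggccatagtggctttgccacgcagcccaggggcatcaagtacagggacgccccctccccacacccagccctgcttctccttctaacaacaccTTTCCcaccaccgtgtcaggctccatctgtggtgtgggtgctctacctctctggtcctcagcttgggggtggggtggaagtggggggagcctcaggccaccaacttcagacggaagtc
Tnf promoter: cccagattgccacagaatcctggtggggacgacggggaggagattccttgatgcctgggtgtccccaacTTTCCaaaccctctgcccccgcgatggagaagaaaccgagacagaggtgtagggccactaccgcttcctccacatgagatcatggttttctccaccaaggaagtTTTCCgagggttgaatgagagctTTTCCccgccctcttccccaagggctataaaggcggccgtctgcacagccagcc
Ifng promoter: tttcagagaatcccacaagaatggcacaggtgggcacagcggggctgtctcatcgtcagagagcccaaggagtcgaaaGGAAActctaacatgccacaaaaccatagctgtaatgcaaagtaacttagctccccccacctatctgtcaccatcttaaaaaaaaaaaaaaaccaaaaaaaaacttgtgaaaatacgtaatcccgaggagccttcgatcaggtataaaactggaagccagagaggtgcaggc

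AU-rich letters of the 3′ UTR were counted after the data were seen, because Zfp36 and Zfp36l2, which bind them, fell. In the longest 3′ UTR of each gene in GENCODE M21, all 10 genes held ATTTA at least 1 time, beside 65.0% of 20979 protein-coding genes. They held 2.20 to 28.4 copies per kilobase, beside a median of 1.23. The longer TTATTTATT was found in 6 of the 10, beside 7.60% of all genes, with 5 copies in Tnf, 4 in Csf2, 2 in Lif and 1 each in Il2, Lta and Il21. Ifng held 6 copies of ATTTA and none of the longer form. The 30 bases with most ATTTA are printed for 4 genes that differed in their change, with ATTTA in capitals: Il2 (chr3:37121040-37121069, minus strand), Tnf (chr17:35199679-35199708, minus strand), Csf2 (chr11:54247329-54247358, minus strand) and Ifng (chr10:118445330-118445359, plus strand).
Il2 3′ UTR site: ctATTTATTTAaatATTTAactttaATTTA
Tnf 3′ UTR site: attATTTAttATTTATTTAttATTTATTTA
Csf2 3′ UTR site: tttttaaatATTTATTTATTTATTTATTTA
Ifng 3′ UTR site: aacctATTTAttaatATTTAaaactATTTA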

How the data were processed

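RNA sequencing of 8 libraries was analysed, 2 for each of 4 groups taken from the labels. Per the labels and methods of the study, the authors used Subread for alignment to mm10 and featureCounts for counting over RefSeq transcripts (versions not given). The authors deposited 1 value per gene and library on a log2 scale, log2(RPKM + 1) + 0.0001, a scale read from the values. RPKM was back-transformed, and whole reads and depths were recovered from the steps between libraries for 17794 of 17794 genes above 0 in at least 2 libraries (within 0.01 reads). Where the mean RPKM reached 0.5, log2(RPKM + 0.1) was modelled with limma 3.58.1 under R 4.3.3, using 4 group means, 5 contrasts, trended empirical Bayes moderation and Benjamini-Hochberg adjustment over all 12605 genes. A call for stimulation needed a change of more than 2-fold besides an adjusted p under 0.01, and a call for Cd an adjusted p under 0.05. The pipeline was also run on simulated reads, with changes set only in genes of a mean of at least 1 RPKM. No result here rests on that run.

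Members and lists were chosen with earlier results of these data known. Besides the 10 members, genes named from each list were the tested gene with the highest mean over the 8 libraries, the 2 genes that rose most and the 2 that fell most (or fewer) among those called in control offspring, and those called for Cd. Also named were the nearest protein-coding genes and the 3 genes with the pattern most like Il2 and Ifng. Ncr1, Mcpt8, Cd8a, Foxp3, Eomes, Tbx21, Il2rb, Ifngr1, Cd79a, Cpa3, Ccl3, Gzma, Rora, Cd44 and the markers at 0 were added after their values were seen. So were the read intervals and the 3′ UTR letters. Some results that the rules above would name are not reported. Lists for erythroid cells and B cells had 1 tested gene each and no gene called. Settings changed in turn were the pseudocount (0.5 or 1), the filter (none, or a mean RPKM of 1), median-of-ratios and quantile scaling, only the libraries of a comparison, no trend, a replicate block, limma voom on the recovered reads, and each library left out. Long noncoding RNA genes overlap Il3, Csf2 and Il21 in RefSeq, and the strand setting of the counting is not given, so their reads could be shared. Tables were made with Python 3.11.15, numpy 2.4.6, pandas 2.3.3 and scipy 1.17.1, and plots with matplotlib 3.10.9.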

Additional observations from a re-analysis of the deposited data

How the results depend on the processing

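The 6 tested genes gave 30 log2 fold changes over 5 contrasts, and 22 of them kept their direction and their side of the threshold under every alternative run. The number of genes called for stimulation was 5 in both kinds of offspring, 7 without the filter, which admits Il3 and Csf2 (beside 2644 of 18973 genes in control and 2659 in Cd offspring), and 4 to 5 with a library of control offspring left out. For Cd in unstimulated cells the 1 call (Il2) became 0 with pseudocounts of 0.5 and 1, without the filter, with quantile normalization, with only the libraries of the comparison, without the trend and with voom, and it was 0 to 1 with a library left out. With a replicate block the count was also 0 (adjusted p = 0.084 for Il2), and the block moved no other count of these genes. The main fit had no block, because the methods of the study name none for the sequencing, although its qPCR was tested with stimulated and unstimulated samples paired. The deviations of same-numbered libraries correlated at 0.064, 0.0085, 0.012 and -0.041. Such values cannot decide whether libraries of the same number came from 1 animal, because noise of each library also lowers them. The block changed the number of all genes called for the difference in response from 45 to 25.

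Among the 6 tested genes direction reversed in contrasts of Cd only. Of the untested genes, Il10 and Il21 also reversed for stimulation with a library left out, from -0.58 to 1.47 for Il10 in control offspring, and for Il21 from -0.79 to 0.31 in control and from -1.72 to 0.29 in Cd offspring. For Tnf in unstimulated cells (0.0083) it was -0.0029 with median-of-ratios scaling and ranged from -0.069 to 0.086 with a library left out. With a library left out, Il4 ranged from -0.21 to 0.97 in unstimulated cells, from -0.52 to 0.64 in stimulated cells and from -0.91 to 0.27 for the difference in response. Lta ranged from -0.48 to 0.13 in unstimulated cells and from -0.28 to 0.33 for the difference in response. The cause was not tested. Cd in stimulated cells gave no call among all genes, but 9 without the filter, 2 without the trend and up to 3 with a library left out. The number of all genes called for Cd in unstimulated cells ranged from 14 without the trend to 211 with voom, and for the difference in response from 2 without stimulated Cd library 7 to 112 with voom. A fit without 1 library assumes that the lone library of its group varies like the others. Few reads limit Il3, Csf2, Il4, Il10, Il21 and unstimulated Il2 and Lif.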
